A study of Mus musculus with 18 samples.

Results

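The proteasome genes described here were all genes with a probe set of a single gene symbol that begins Psma, Psmb, Psmc, Psmd, Psme or Psmg and goes on with a number, with 1 gene of that pattern not analysed. They came to 44 genes on 78 probe sets, of 12393 genes on the 22626 probe sets tested, and each gene was read on its brightest probe set over the 18 arrays. RNA came from whole testes of hpg mice, mutants that lack gonadotrophin-releasing hormone and so make very little follicle-stimulating hormone (FSH) or luteinising hormone. Recombinant FSH was given subcutaneously at 8 IU in 0.2 ml of PBS, repeated at 12 h intervals, to adult males aged 10 weeks for 12 h (4 mice), 24 h (3 mice) or 72 h (4 mice), and testes were taken 1 h after the last dose. The controls were 7 hpg males of that age with no treatment, for which the labels give no vehicle injection, so all groups share the hpg mutation. Each Affymetrix MOE430A array held the RNA of 1 mouse, so p-values reflect differences among mice as well as among arrays. All values are deposited log2 expression per probe set. In whole testis, fewer cells of a type and less RNA per cell cannot be told apart.

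The proteasome is the chamber in which cells break down proteins tagged with ubiquitin. Its 20S core is a stack of rings of alpha subunits, which form the gate, and of beta subunits, some of which carry the cutting sites, and the 19S regulator caps the core, binds tagged proteins, removes the ubiquitin and threads the chain inward with a ring of ATPases. Some subunits have variants, such as the immune forms of the cutting subunits and a testis form of an alpha subunit. Other activators can replace the 19S cap, and dedicated chaperones help to assemble both parts. The transcription factor Nfe2l1 is known to raise the genes for proteasome subunits together. FSH acts on Sertoli cells, which line the tubules and nurse the germ cells.

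The arrays formed 2 technical sets, seen in a bacterial spike-in (Dap) that read 8.05 to 8.86 on 12 arrays (12 h, 72 h and control replicates 4 to 7) and 2.70 to 3.41 on 6 (24 h and control replicates 1 to 3). Each time was therefore compared with the controls of its own set: 12 h and 72 h with controls 4 to 7, which both comparisons share, and 24 h with controls 1 to 3. In control replicates 1 to 3 against control replicates 4 to 7, with no FSH in either, 1 of the 44 genes was called higher and 9 lower by limma (adjusted p below 0.05, a background of 3.05% and 5.79% of genes), with a median log2 difference of -0.24. Control replicate 6 stood apart in carrying transcripts of spermatids, the late germ cells: the mean over 7 spermatid markers was 10.77 on that array and 2.75 to 3.58 on the other 17. Prm1, which packs sperm DNA, read 12.04 there and 2.85 to 3.85 elsewhere. The counts and medians at 12 h and 72 h are therefore also given without that array, as are the changes of Psma8, Psmc3, Psmd8, Psme3 and Psme4, which it moved by more than 0.1 at 12 h or 72 h. Array medians lay between 4.44 and 4.64.

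As a set, the proteasome core and cap subunits had more transcript in FSH treated testes at each time. The median fold change over these 32 subunits was 1.15, 1.31 and 1.14 at 12, 24 and 72 h. The genes called, with the chaperone gene Psmd9 among them, were higher by 1.22- to 1.68-fold. Of the 44 genes 26 were called at no time. At 12 h, 6 of 44 genes (13.6%) were called higher (limma adjusted p below 0.05, a background of 3.52% of genes) and 0 lower (background 2.76%). At 24 h, 15 of 44 (34.1%) were called higher (background 6.38%) and 0 lower (background 8.45%). At 72 h, 7 of 44 (15.9%) were called higher (background 4.23%) and 0 lower (background 3.03%). At an unadjusted p under 0.05 the counts of lower genes were 0, 1 and 0 at 12, 24 and 72 h, the last being the chaperone gene Psmg3 at 24 h, and the counts of higher genes were 16, 22 and 21. Proteasome genes are bright, and among 1290 genes at the level of their middle range (8.72 to 10.64) 8.37%, 10.2% and 9.69% were called higher at 12, 24 and 72 h. The median log2 fold change over the 44 genes was 0.17, 0.28 and 0.15 at 12, 24 and 72 h, against 0.00, 0.04 and 0.01 over all genes. Of the 44 fold changes 34, 40 and 35 were above 0.

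The rise was seen on each treated array and not on 1 or 2 of them. For every array the median over the 44 genes of the difference from the mean of the same-set controls was taken. It was 0.17, 0.17, 0.13 and 0.17 at 12 h and 0.23, 0.21, 0.15 and 0.12 at 72 h, against -0.05, -0.06, 0.07 and 0.04 in controls 4 to 7. It was 0.36, 0.29 and 0.36 at 24 h, against 0.03, -0.06 and 0.05 in controls 1 to 3. All 11 treated arrays lay above all controls of their set, while the same median over all genes lay between -0.04 and 0.04 on all 18 arrays. Gene by gene, every treated array was above every same-set control for 11, 22 and 15 of the 44 genes at 12, 24 and 72 h, or 25.0%, 50.0% and 34.1%, beside 6.08%, 24.5% and 7.46% of all genes. Among the genes at the level of their middle range these shares were 13.0%, 17.1% and 15.3%. Every treated array was below every same-set control for 0, 1 (Psmg3) and 1 (Psmd5) of the 44, beside 5.94%, 13.0% and 6.75% of all genes.

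**Figure D1:**
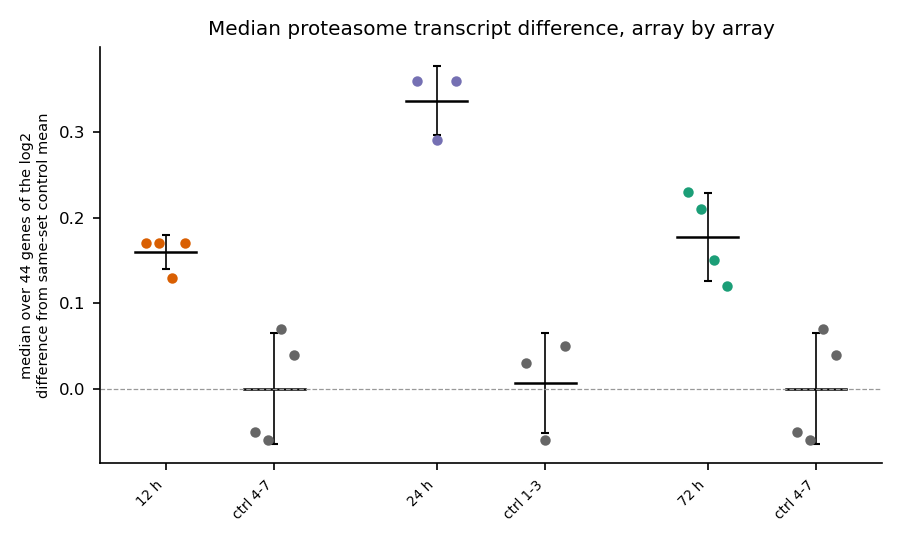
Median over 44 proteasome genes of the log2 difference from the same-set control mean (vertical axis), for each array (points), with the group mean (thick bar) and SD (thin bar); control replicates 4 to 7 are drawn beside both 12 h and 72 h. The 24 h arrays sit at 0.29 to 0.36 and the 12 h and 72 h arrays at 0.12 to 0.23, all above the controls at -0.06 to 0.07.

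The counts at single times depended on how the error was estimated. With the 24 h arrays and controls 1 to 3 fitted alone, 2 of the 15 calls remained, Psma7 and Psmd4, and the fold changes were the same; that fit called 393 probe sets in all, against 3023 in the fit over 18 arrays. Replicate numbers were taken as pairs of 24 h arrays and controls 1 to 3 from correlations in these same data. That block was added after seeing the data. With it 19 genes were called higher by limma, the same 15 and Psmd7 (adjusted p = 0.0294), Psmd13 (0.0363), Psmg1 (0.0145) and Psmg4 (0.0382). As these data chose the block, the added calls are not separate support. Without control replicate 6, 5 genes were called higher at 12 h, of which 4 were among the 6, and the same 7 at 72 h, with medians of 0.19 and 0.17. The 12 h calls of Psmb3 (adjusted p = 0.0541) and Psmb7 (0.0995) were lost without it, and Psmb6 was added. Of the 28 calls at the 3 times, 17 were kept whichever of the 18 arrays was left out.

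By part of the particle, the calls were counted separately for subunits and for other genes. Of the 32 subunits of the 20S core and 19S regulator, 6, 14 and 7 were called higher at 12, 24 and 72 h (18.8%, 43.8% and 21.9%), with median log2 fold changes of 0.20, 0.39 and 0.19. Of the other 12 genes, the variants, activators and chaperones, 0, 1 and 0 were called higher, with medians of 0.03, 0.10 and -0.11, and at an unadjusted p under 0.05 the limma counts higher were 0, 3 and 2. Among all genes 3.52%, 6.38% and 4.23% were called higher, so the counts for these 12 are near the background. With the pairing of replicates taken from these data as a block 3 of the 12 were called higher at 24 h, Psmd9, Psmg1 and Psmg4. The difference between these sets of genes was not tested. At 1 time or more 18 genes were called, Psmc4 at all 3 times, and 26 genes at no time. The fold change was above 0 at all 3 times for 30 genes and below 0 at all 3 times for 1, the immune variant Psmb9.

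**Figure D2:**
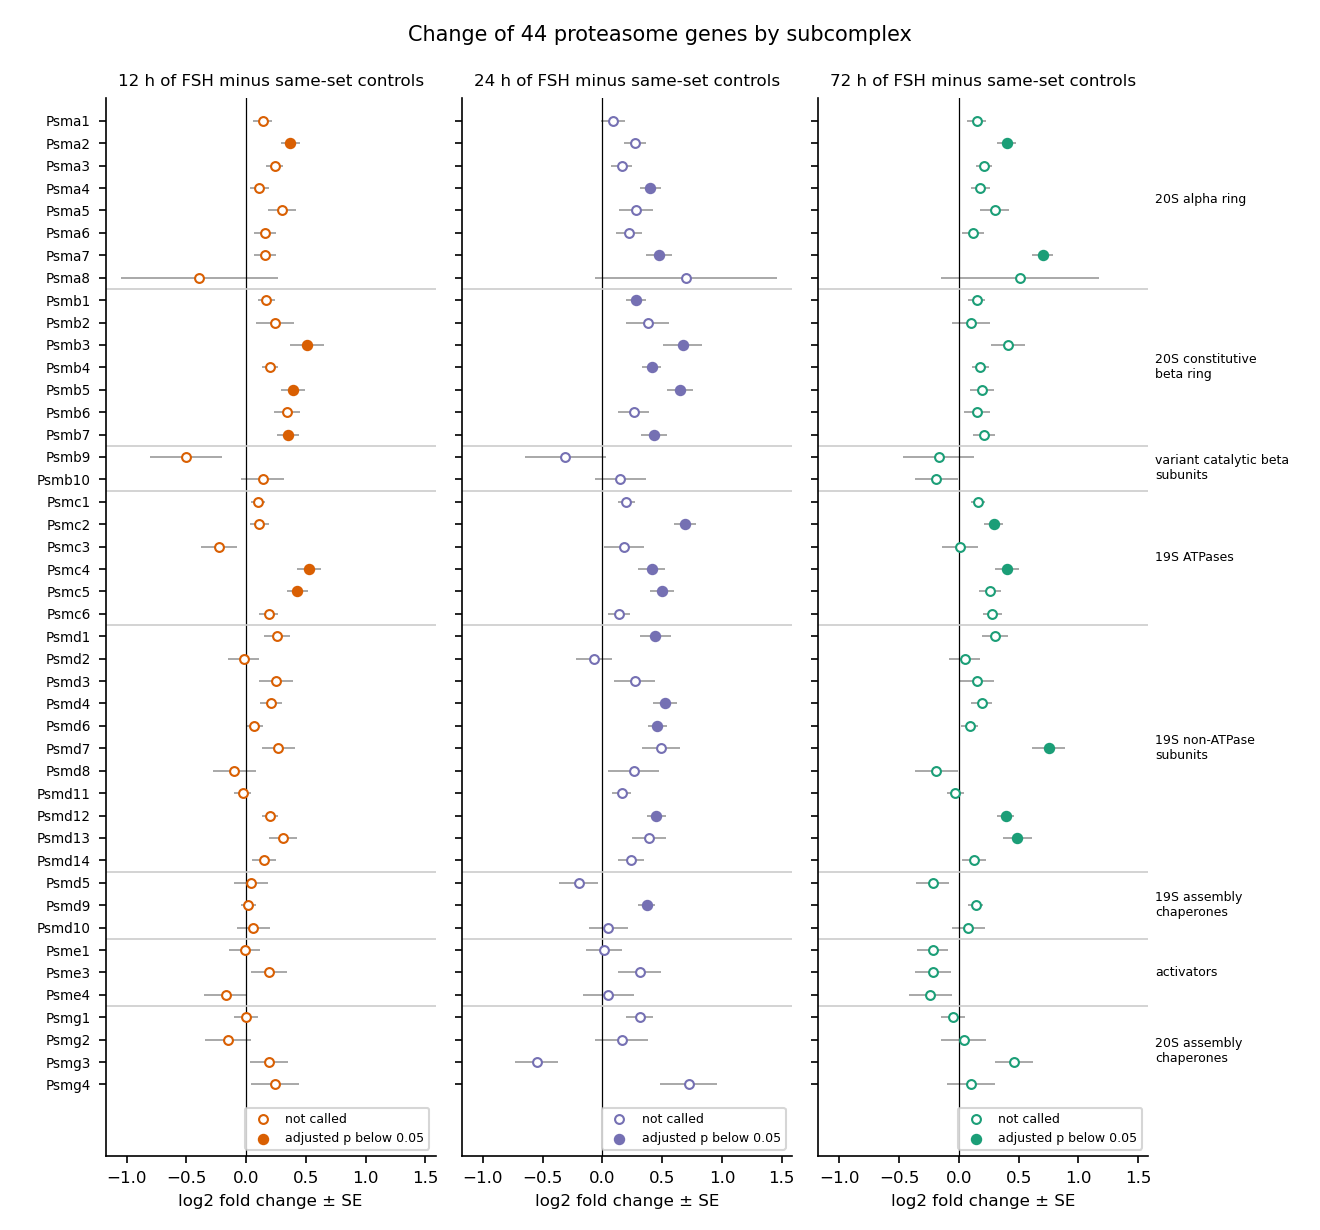
Log2 fold change with its SE (horizontal axis) of each of the 44 genes, grouped by part of the proteasome, at 12, 24 and 72 h of FSH against same-set controls; filled points were called (limma adjusted p below 0.05) and open points were not. The beta ring and the 19S subunits lie mostly right of 0 in the 3 panels, and the filled points number 6, 15 and 7.

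In the alpha ring, which forms the gate and outer wall of the core, Psma2 rose at 12 h and 72 h, Psma7 at 24 h and 72 h and Psma4 at 24 h, of 8 genes. Psma2 read 11.29, 11.20, 11.26 and 11.19 at 12 h and 11.51, 11.23, 11.26 and 11.06 at 72 h, against 10.93, 10.85, 10.74 and 10.93 in controls 4 to 7. Every treated array was above every control, and the Psma2 rise was 0.37 ± 0.08 at 12 h (log2 ± SE, 1.29-fold, adjusted p = 0.0128). At 72 h the rise was 0.40 ± 0.08 (1.32-fold, adjusted p = 0.0073). At 24 h its arrays, at 10.55, 10.66 and 10.81, were also all above controls 1 to 3 at 10.46, 10.32 and 10.43, but the change of 0.27 was not called (adjusted p = 0.0663). Psma4 rose by 0.40 ± 0.09 at 24 h (adjusted p = 0.0131). The genes Psma1, Psma3, Psma5 and Psma6 had fold changes of 0.09 to 0.30 at the 3 times and none was called on its brightest probe set; a dimmer probe set of Psma5 was called at 72 h (0.29, adjusted p = 0.0433).

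Psma7, which encodes the usual alpha 4 subunit, was the only one of the 44 genes called between 72 h and 12 h on its brightest probe set. It read 11.24, 11.31, 11.13 and 10.88 at 72 h, 10.61, 10.66, 10.50 and 10.63 at 12 h, and 10.18, 10.53, 10.58 and 10.48 in controls 4 to 7. The 72 h arrays lay above all others of the set, while 12 h and controls overlapped. Psma7 was 1.62-fold higher at 72 h than in controls (0.70 ± 0.09, adjusted p = 0.000372) and 1.45-fold higher than at 12 h (0.54 ± 0.09, adjusted p = 0.00613), which was 1 of 44 genes (background 1.76% higher and 1.1% lower). At 24 h it read 10.89, 10.89 and 10.78, against 10.36, 10.36 and 10.44 in controls 1 to 3, with no overlap (0.47 ± 0.11, adjusted p = 0.0109). Its second probe set gave a like value at 72 h against controls (0.69, adjusted p = 0.0026) and 0.44 for 72 h against 12 h, which was not called (adjusted p = 0.0809).

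Psma8 encodes the alpha 4 form of meiotic and later germ cells, which takes the place of Psma7 in mouse spermatocytes. It read 9.14, 9.13, 8.74 and 7.67 at 12 h and 9.78, 9.71, 9.27 and 9.53 at 72 h, against 9.14, 7.49, 9.80 and 9.81 in controls 4 to 7. It read 8.73, 7.18 and 9.83 at 24 h, against 7.31, 6.92 and 9.39 in controls 1 to 3. Treated and control arrays overlapped at every time, and the changes of -0.39 ± 0.66, 0.70 ± 0.76 and 0.51 ± 0.66 were not called (adjusted p of 0.54 and more). Without control replicate 6 the Psma8 changes were -0.14 at 12 h and 0.76 at 72 h, again not called. The values fell into separate groups of arrays that crossed the study's groups. In 5 arrays Psma8 lay between 6.92 and 7.67 (12 h replicate 4, 24 h replicate 2 and controls 1, 2 and 5), and in the other 13 between 8.73 and 9.83. Piwil1, a piRNA-binding protein of spermatocytes and later germ cells, read 3.32 to 4.84 on the same 5 arrays and 6.54 to 8.55 on the 13. Of the 12 meiotic markers measured, which include Piwil1, Spo11, which cuts DNA to start recombination, and Msh4, which acts in crossing over, also separated the same arrays, and the other 9 did not. The mean over the 12 markers, with Piwil1, Spo11 and Msh4 among them, was lowest on the same 5 arrays. It was 7.36 to 7.73 there, against 7.81 to 8.5 on the other 13. As the values of Psma8 and Piwil1 fall into clusters, no correlation is given. The part of germ cell content in the Psma8 values was not tested further.

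**Figure D3:**
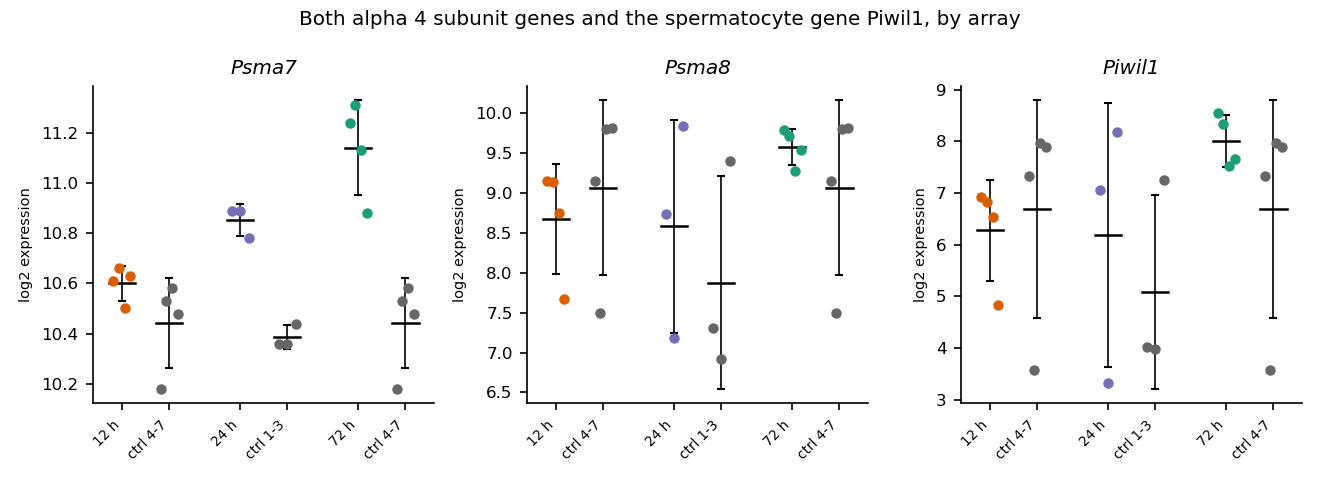
Deposited log2 values by array (points) of Psma7, Psma8 and Piwil1 at 12, 24 and 72 h of FSH, each beside its same-set controls, with mean and SD. Psma7 at 72 h lies at 10.88 to 11.31 above its controls at 10.18 to 10.58, while Psma8 and Piwil1 have low arrays in 4 of the 5 groups of mice and none at 72 h.

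In the beta ring, 3 of 7 genes were called higher at 12 h, 5 at 24 h and 0 at 72 h, with medians of 0.34, 0.41 and 0.18; at an unadjusted p under 0.05 the limma count at 72 h was 4. The direct limma comparison of 72 h with 12 h called 0 of the 7 on their brightest probe sets (0 at an unadjusted p under 0.05), with changes of -0.20 to -0.02; the dimmer probe set of Psmb3 gave a called difference of -0.29 for 72 h minus 12 h (adjusted p = 0.0449). Psmb5, whose product has the chymotrypsin-like site that cuts after oily residues, read 10.34, 10.25, 10.10 and 10.20 at 12 h, against 9.78, 9.66, 10.13 and 9.75 in controls 4 to 7. Only control replicate 6, at 10.13, reached the 12 h arrays, and the change was 0.39 ± 0.10 (1.31-fold, adjusted p = 0.0314), and 0.49 without that array (adjusted p = 0.00316). At 24 h Psmb5 read 9.93, 9.91 and 9.90, against 9.47, 9.15 and 9.17 in controls 1 to 3, apart by more than the spread (1.57-fold, 0.65 ± 0.11, adjusted p = 0.00206). The Psmb5 mean was 9.26 in controls 1 to 3 and 9.83 in controls 4 to 7, with no FSH in either. Against all 7 controls with no set term, the 24 h change was 0.33 and not called (adjusted p = 0.122). At 72 h Psmb5 read 10.12, 10.12, 9.92 and 9.91, which overlapped controls 4 to 7 through replicate 6 (0.19 ± 0.10, adjusted p = 0.379). Without replicate 6 the change at 72 h was 0.29 (adjusted p = 0.0604).

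Psmb7, with the trypsin-like site, rose by 0.35 ± 0.09 at 12 h (adjusted p = 0.038) and by 0.43 ± 0.11 at 24 h (adjusted p = 0.0168), and its change at 72 h was 0.21 (adjusted p = 0.239). Psmb6, with the caspase-like site, had changes of 0.34 ± 0.11, 0.26 ± 0.13 and 0.15 ± 0.11 that were not called, but was called at 12 h without control replicate 6 (0.43, adjusted p = 0.0331). Psmb3, a subunit with no cutting site, read 11.11, 10.99, 10.71 and 10.75 at 12 h, against 10.21, 10.35, 10.50 and 10.47 in controls 4 to 7. All 12 h arrays were above the controls (0.51 ± 0.14, 1.42-fold, adjusted p = 0.0415), as were the 24 h arrays at 11.09, 11.47 and 11.52, against 10.42, 10.94 and 10.71 in controls 1 to 3 (0.67 ± 0.16, adjusted p = 0.0117). Its change at 72 h of 0.41 was not called (adjusted p = 0.102), but its dimmer probe set was called at all 3 times, with 0.67, 0.75 and 0.38. Psmb1 (0.28 ± 0.08, adjusted p = 0.0321) and Psmb4 (0.41 ± 0.08, adjusted p = 0.00488), subunits with no cutting site, rose at 24 h, and Psmb2 was not called at any time. A dimmer probe set of Psmb4, at a mean level of 9.95, gave 0.13 at 24 h and was not called (adjusted p = 0.522). In this ring single arrays decided several calls. At 12 h the call of Psmb3 was lost in 10 of the 18 omissions of 1 array (adjusted p up to 0.117), that of Psmb7 in 8 (up to 0.102) and that of Psmb5 in 6 (up to 0.0932). At 24 h Psmb3 was lost without control 1 (0.0625), Psmb7 without control 1, control 2 or 24 h replicate 1 (up to 0.0629) and Psmb1 without any 1 of those 3 or 24 h replicate 2 (up to 0.126).

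The immune variants of the cutting subunits and the cap that goes with them did not share these calls. Psmb9, the immune variant of Psmb6, read 4.61, 3.74, 5.03 and 4.47 at 12 h and 5.65, 4.60, 4.60 and 4.33 at 72 h, against 4.93, 5.25, 4.68 and 4.99 in controls 4 to 7, and 3.78, 4.17 and 4.22 at 24 h, against 4.62, 4.61 and 3.88 in controls 1 to 3. These groups overlapped, and the changes of -0.50 ± 0.30, -0.31 ± 0.34 and -0.17 ± 0.30 were not called. Psmb9 had a low mean level, 4.56, within the range of the array medians (4.44 to 4.64). Psmb10, the immune variant of Psmb7, had changes of 0.14 ± 0.18, 0.15 ± 0.21 and -0.19 ± 0.18, and Psme1, part of the interferon-induced cap, of -0.01 ± 0.13, 0.01 ± 0.15 and -0.22 ± 0.13, with no call. Psme3, a nuclear cap, and Psme4, a cap known in mouse for the removal of histones from spermatids, were not called on their brightest probe sets either; a dim probe set of Psme3 was called at 24 h (0.72, adjusted p = 0.00926). Psme3 and Psme4 read highest among controls 4 to 7 in replicate 6, at 7.94 and 9.25, and without that array their changes at 72 h were -0.05 and -0.09, in place of -0.22 and -0.24, and at 12 h 0.36 and -0.02, in place of 0.19 and -0.17, with no call. The probe set of Psme2, the partner of Psme1, names more than 1 gene and was left out, and Psmb11 was not analysed here. Of 16 measured genes of the interferon response and of antigen presentation, which are known to be switched on with the immune variants, 0 were called higher and 2, 4 and 4 lower at 12, 24 and 72 h, with medians of -0.45, -0.32 and -0.38. Among all genes 2.76%, 8.45% and 3.03% were called lower. Of the list, Ifit1, Irf7, Tap1 and Tap2 were dim, with mean levels of 2.27, 2.60, 2.76 and 3.00. The array means of this list lay at 5.51 to 6.19 at 12 h and 5.58 to 5.92 at 72 h, against 6.15 to 6.34 in controls 4 to 7, and 5.27 to 5.52 at 24 h, against 5.56 to 5.99 in controls 1 to 3. The treated ranges were below the controls at 24 h and 72 h and overlapped them at 12 h. The part of these levels in the values of Psmb9 was not tested.

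**Figure D4:**
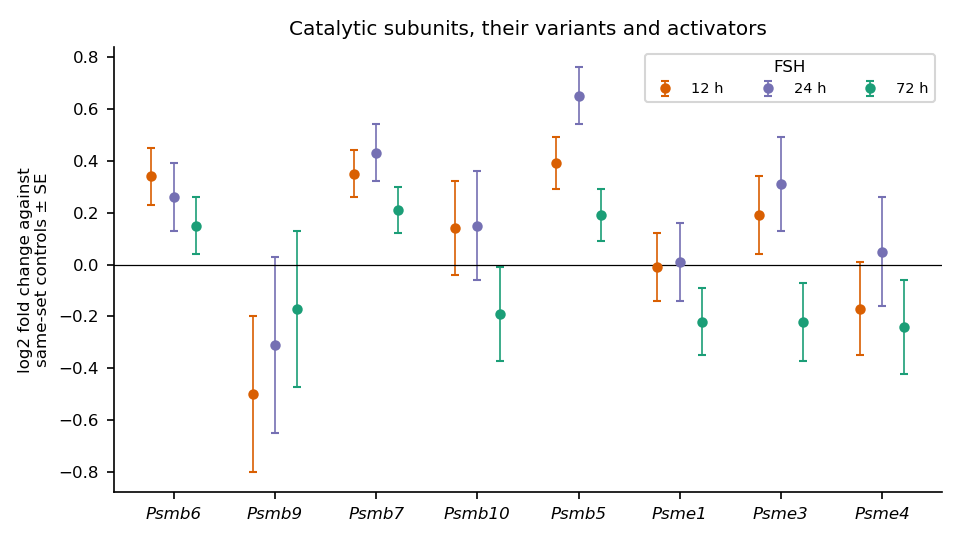
Log2 fold change with its SE (vertical axis) against same-set controls at 12, 24 and 72 h of FSH for the cutting subunits Psmb6, Psmb7 and Psmb5, the variants Psmb9 and Psmb10, and the activators Psme1, Psme3 and Psme4. The cutting subunits lie at 0.15 to 0.65, Psmb10 at -0.19 to 0.15, and Psmb9, with a low mean level of 4.56, at -0.50 to -0.17.

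Among the 6 ATPases of the 19S cap, which unfold proteins and push them into the core, 2, 3 and 2 were called higher at 12, 24 and 72 h. Psmc4 was the only gene of the 44 called at all 3 times. It read 9.22, 9.58, 9.37 and 9.64 at 12 h and 9.50, 9.21, 9.24 and 9.35 at 72 h, against 8.73, 8.89, 9.00 and 9.06 in controls 4 to 7. It read 9.35, 9.30 and 9.22 at 24 h, against 8.81, 8.92 and 8.92 in controls 1 to 3. Every treated array was above every one of the 7 controls. The rise was 0.53 ± 0.10 at 12 h (1.45-fold, adjusted p = 0.00333). It was 0.41 ± 0.11 at 24 h (1.33-fold, adjusted p = 0.0263), and 0.40 ± 0.10 at 72 h (1.32-fold, adjusted p = 0.0198). Leaving out control 1 or 24 h replicate 1 or 2 ended the 24 h call (adjusted p up to 0.0986), and leaving out control 4 or 5 or 72 h replicate 1 or 4 ended the 72 h call (up to 0.0655). A dimmer probe set of Psmc4 was called at 12 h (0.63) and 72 h (0.57) and not at 24 h (0.19, adjusted p = 0.274).

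Psmc2 rose most at 24 h. It read 12.24, 12.39 and 12.50 there, against 11.53, 11.63 and 11.90 in controls 1 to 3, with no overlap (1.61-fold, 0.69 ± 0.09, adjusted p = 0.000248). It read 12.23, 12.04, 12.17 and 12.06 at 72 h and 11.91, 12.01, 11.86 and 12.00 at 12 h, against 11.81, 11.73, 11.91 and 11.87 in controls 4 to 7. The 72 h arrays were all above these controls (0.29 ± 0.08, adjusted p = 0.0409) and the 12 h arrays overlapped them (0.11 ± 0.08, adjusted p = 0.605). The 24 h change exceeded the 12 h change by 0.58 ± 0.12 (adjusted p = 0.0401), the only call of 44 genes in that comparison (background 0.282% higher and 0.646% lower); 13 of the 18 omissions of 1 array ended it (adjusted p up to 0.0991), and so did centring each array on its median. The 72 h call was ended by 10 omissions (adjusted p up to 0.116). The dimmer probe set of Psmc2 was called at all 3 times, with 0.23, 0.62 and 0.40.

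Psmc5 read 10.16, 10.17, 10.15 and 10.31 at 12 h, against 9.87, 9.75, 9.74 and 9.73 in controls 4 to 7, with no overlap (0.43 ± 0.09, adjusted p = 0.00902). At 24 h it read 10.18, 9.96 and 9.89, against 9.66, 9.57 and 9.30 in controls 1 to 3 (0.50 ± 0.10, adjusted p = 0.00549), and its 72 h change of 0.26 was not called (adjusted p = 0.107), although all 72 h arrays, at 9.89 to 10.22, were above controls 4 to 7. Psmc6 had changes of 0.19, 0.14 and 0.28 that were not called, while its dimmer probe set gave 1.09 at 12 h (adjusted p = 0.0257) and 0.99 at 72 h (adjusted p = 0.0386), so its probe sets disagreed in size. Psmc1 had 0.10 to 0.20. Psmc3 had -0.23, 0.18 and 0.01, and control replicate 6 gave the highest of its 18 values, 11.04; without it the changes were -0.07 at 12 h and 0.17 at 72 h.

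**Figure D5:**
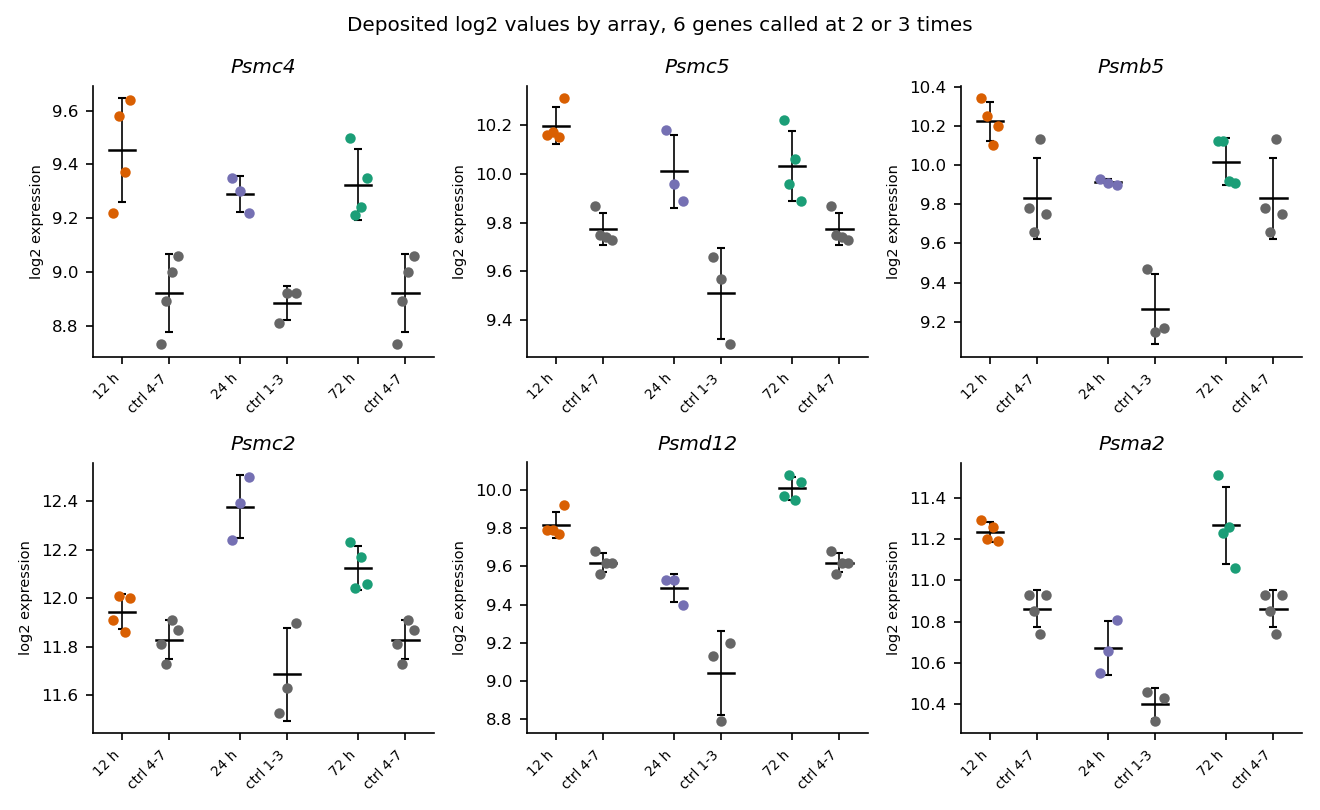
Deposited log2 values by array (points) of 6 genes called at 2 or 3 times, at 12, 24 and 72 h of FSH, each beside its same-set controls, with mean and SD; control replicates 4 to 7 stand beside both 12 h and 72 h. Treated arrays lie above all same-set controls at each time for Psmc4, Psmc5, Psmd12 and Psma2, and not for Psmb5 and Psmc2 at every time.

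The non-ATPase subunits of the 19S cap had 0, 4 and 3 of 11 genes called higher at 12, 24 and 72 h; at an unadjusted p under 0.05 the limma count at 12 h was 4. Psmd12, a subunit of the lid that covers the ATPase ring, read 9.97, 10.08, 9.95 and 10.04 at 72 h and 9.79, 9.79, 9.77 and 9.92 at 12 h, against 9.68, 9.56, 9.62 and 9.62 in controls 4 to 7. The 3 groups did not overlap, with changes of 0.39 ± 0.07 at 72 h (adjusted p = 0.00444) and 0.20 ± 0.07 at 12 h (adjusted p = 0.162), and 0.19 ± 0.07 for 72 h against 12 h (adjusted p = 0.263). At 24 h it read 9.53, 9.53 and 9.40, against 9.13, 8.79 and 9.20 in controls 1 to 3 (0.45 ± 0.08, adjusted p = 0.00318). Psmd7, the partner of the deubiquitinating subunit in the lid, had the largest change of the 44 genes at 72 h, reading 9.81, 10.11, 9.94 and 10.02, against 8.96, 9.42, 9.30 and 9.21 in controls 4 to 7. These arrays were apart (1.68-fold, 0.75 ± 0.14, adjusted p = 0.00478). The 24 h change of 0.49 was not called in the fit over 18 arrays (adjusted p = 0.0581), but was with the pairing taken from these data.

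Psmd13, a lid subunit, rose by 0.49 ± 0.12 at 72 h (adjusted p = 0.0277), and that call was ended by leaving out control 4 or 5 or 72 h replicate 1, 2 or 3 (adjusted p up to 0.0842). A dimmer probe set of Psmd13 was not called, with 0.20 at 72 h (adjusted p = 0.292) and -0.06 at 24 h (adjusted p = 0.744). Psmd4, a receptor for ubiquitin chains, rose by 0.52 ± 0.10 at 24 h (adjusted p = 0.00393), where it read 10.89, 10.99 and 10.95, against 10.44, 10.31 and 10.52 in controls 1 to 3. Psmd6, a lid subunit, rose by 0.46 ± 0.08 at 24 h (adjusted p = 0.00142), and Psmd1, a scaffold of the base, by 0.44 ± 0.13 (adjusted p = 0.038), a call that ended without 24 h replicate 2 or 3 or control 1 (up to 0.168). Psmd14, the deubiquitinating subunit, had changes of 0.15, 0.24 and 0.13 with no call. Psmd2, a scaffold of the base that binds ubiquitin carriers, had -0.02, -0.07 and 0.05, Psmd8, a lid subunit, had -0.10, 0.26 and -0.19 (0.02 at 12 h and -0.06 at 72 h without control replicate 6), and Psmd3 and Psmd11 had -0.03 to 0.27; a dimmer probe set of Psmd11 was called at 24 h (0.52, adjusted p = 0.0177).

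Of the genes for chaperones that assemble the 19S base, Psmd9 rose at 24 h, where it read 6.97, 6.83 and 6.90, against 6.53, 6.64 and 6.42 in controls 1 to 3, with no overlap (0.37 ± 0.07, adjusted p = 0.00352). Psmd5 and Psmd10 had changes of -0.22 to 0.08 and no call. The 4 chaperone genes of the 20S core, Psmg1 to Psmg4, had no call by limma at any time in the fit over 18 arrays, and at an unadjusted p under 0.05 there were 0, 3 and 1 of them at 12, 24 and 72 h. With the pairing of replicates taken from these data as a block Psmg1 and Psmg4 were called at 24 h (adjusted p = 0.0145 and 0.0382). Psmg3 read 6.04, 6.04 and 5.84 at 24 h, against 6.49, 6.46 and 6.62 in controls 1 to 3, all lower (-0.55 ± 0.18, adjusted p = 0.0605). At 72 h it read 7.16, 7.96, 7.25 and 7.07, against 6.86, 6.80, 7.18 and 6.77 in controls 4 to 7, which overlapped (0.46 ± 0.16, adjusted p = 0.119). Psmg4 had 0.72 ± 0.24 at 24 h (adjusted p = 0.0584) with no overlap of the arrays. Psmg1 had 0.00, 0.31 and -0.05 and Psmg2 -0.15, 0.16 and 0.04 at 12, 24 and 72 h.

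Of 45 listed other genes of the ubiquitin and proteasome system 31 were measured, and 1, 2 and 2 were called higher at 12, 24 and 72 h (background 3.52%, 6.38% and 4.23%) and 1, 4 and 1 lower (background 2.76%, 8.45% and 3.03%), with medians of 0.01, -0.13 and -0.01. These counts are near the background, and the difference from the 44 genes was not tested. Pomp, the chaperone that completes the assembly of the core and is then its first substrate, was called at all 3 times. It read 10.85, 10.64, 10.54 and 10.67 at 12 h and 10.95, 10.79, 10.86 and 10.73 at 72 h, against 10.12, 10.25, 10.40 and 10.27 in controls 4 to 7, and 10.67, 10.50 and 10.54 at 24 h, against 9.93, 10.00 and 10.01 in controls 1 to 3. No treated array overlapped a control, with changes of 0.42 ± 0.07 (adjusted p = 0.00263), 0.59 ± 0.08 (adjusted p = 0.000431) and 0.58 ± 0.07 (adjusted p = 0.000239).

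The genes for transcription factors linked to proteasome genes were not called higher. Nfe2l1 had -0.10, -0.67 and 0.04 at 12, 24 and 72 h, of which the fall at 24 h was called (adjusted p = 0.0282). Nfe2l2, the oxidative stress factor, read 8.93, 8.59 and 8.52 at 24 h, against 9.47, 9.62 and 9.36 in controls 1 to 3, and 8.25, 8.26, 8.83 and 8.75 at 72 h, against 9.26, 9.43, 9.11 and 9.19 in controls 4 to 7. It fell at both times with no overlap (-0.81 ± 0.16, adjusted p = 0.00507, and -0.73 ± 0.14, adjusted p = 0.00588). Ngly1, which strips sugar from the Nfe2l1 protein and so allows its activity, fell at 12 h (-0.52 ± 0.13, adjusted p = 0.0355), where control replicate 6 had the highest control value, 8.73 against 7.94 to 8.14 in the other controls of the set. Of genes for carriers of tagged proteins, Ubqln1 rose at 24 h (0.53 ± 0.15, adjusted p = 0.034) and Ubqln2 at 72 h (0.83 ± 0.21, adjusted p = 0.0299). Zfand5, which binds and stimulates the proteasome, fell at 24 h (-0.58 ± 0.18, adjusted p = 0.0441). Sem1, a small lid subunit outside the naming pattern, also fell at 24 h (-0.43 ± 0.13, adjusted p = 0.0489), and its changes at 12 h and 72 h were 0.33 and 0.37 with no call.

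The DNA before the start sites was read for letters known from proteasome genes. RefSeq start sites (GRCm38.p6) gave windows of the 250 bases before the start for 36 of the 44 genes, 38 windows in all. Both strands were searched for the core of the antioxidant response element, which Nfe2l1 and Nfe2l2 are known to bind (TGACNNNGC), the CCAAT box (CCAAT), the GC box (GGGCGG) and the core of the cAMP response element (TGACG), which can overlap the first. The shares of windows with a match were 13.2%, 34.2%, 55.3% and 39.5% for the proteasome genes, against 10.2%, 33.8%, 32.7% and 17.8% of all 32851 windows, given as a description with no test. Of the 18 genes called at 1 time or more 15 had a window, 3 of them with the antioxidant core (Psmb5, Psmd12 and Psmd9) and 5 with a CCAAT box (Psma2, Psma7, Psmb3, Psmc2 and Psmd4). The windows of 5 genes called at 2 or 3 times, 1 or 2 from each main part, are printed from 5′ to 3′ on the strand of the gene, with the antioxidant core and CCAAT in capitals, on either strand. They lie at chr7:28050093-28050342 (minus strand, Psmc4), chr14:54617996-54618245 (minus, Psmb5), chr11:107479278-107479527 (plus, Psmd12), chr2:180042465-180042714 (minus, Psma7) and chr11:97703184-97703433 (plus, Psmb3).
Psmc4: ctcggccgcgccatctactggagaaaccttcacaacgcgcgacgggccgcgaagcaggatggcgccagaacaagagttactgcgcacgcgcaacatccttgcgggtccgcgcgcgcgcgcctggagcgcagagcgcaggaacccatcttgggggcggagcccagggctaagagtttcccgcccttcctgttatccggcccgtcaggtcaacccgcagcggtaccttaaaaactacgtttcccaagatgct
Psmb5: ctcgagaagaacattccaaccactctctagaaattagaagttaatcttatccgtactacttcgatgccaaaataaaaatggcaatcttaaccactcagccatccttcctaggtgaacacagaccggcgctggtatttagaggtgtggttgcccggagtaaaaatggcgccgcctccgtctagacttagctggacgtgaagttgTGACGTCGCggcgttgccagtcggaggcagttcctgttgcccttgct
Psmd12: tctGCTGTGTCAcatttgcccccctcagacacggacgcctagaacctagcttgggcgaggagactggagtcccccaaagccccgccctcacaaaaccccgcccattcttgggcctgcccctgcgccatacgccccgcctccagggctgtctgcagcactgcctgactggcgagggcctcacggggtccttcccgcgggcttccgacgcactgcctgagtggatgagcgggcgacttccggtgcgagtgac
Psma7: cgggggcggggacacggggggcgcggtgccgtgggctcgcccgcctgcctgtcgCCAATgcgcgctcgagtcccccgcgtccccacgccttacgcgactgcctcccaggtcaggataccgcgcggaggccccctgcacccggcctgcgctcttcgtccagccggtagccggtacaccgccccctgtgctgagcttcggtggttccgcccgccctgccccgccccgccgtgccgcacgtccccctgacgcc
Psmb3: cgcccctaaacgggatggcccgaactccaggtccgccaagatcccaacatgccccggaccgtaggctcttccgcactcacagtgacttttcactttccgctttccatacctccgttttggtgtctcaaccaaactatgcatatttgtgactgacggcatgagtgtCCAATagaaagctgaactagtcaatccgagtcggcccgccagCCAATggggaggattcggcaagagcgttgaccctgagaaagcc
Psmc4, called at all 3 times, has neither the antioxidant core nor CCAAT in its window, but GC boxes that begin 99 and 73 bases before the start. In Psmb5 the antioxidant core begins 47 bases before the start and shares its first letters with a core of the cAMP response element. In Psmd12 the core lies on the other strand, 247 bases before the start. Psma7 has 1 CCAAT, 196 bases before the start, and 5 GC boxes, and Psmb3 has 2 CCAAT boxes, at 85 and 43 bases. These are matches of letters only, and no binding was measured.

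Marker genes of testis cells give the setting of these changes. Of 14 Sertoli cell markers 4, 3 and 5 were called higher and 2, 3 and 1 lower at 12, 24 and 72 h, and of 8 Leydig cell markers 3, 4 and 1 higher and 1, 0 and 0 lower. Of 9 spermatogonial markers 0 were called higher by limma at the 3 times and 1, 5 and 2 lower, and of 12 meiotic markers 0 higher and 2, 1 and 0 lower. Of 16 macrophage and white blood cell markers 0, 1 and 3 were called higher and 1, 2 and 1 lower, and of 8 peritubular myoid markers 2, 1 and 1 higher and 0 lower. Among all genes 3.52%, 6.38% and 4.23% were called higher and 2.76%, 8.45% and 3.03% lower. Some list counts are near these shares, such as 1 of 12 meiotic markers lower and 1 of 16 macrophage markers higher at 24 h. The array means of the spermatogonial list lay at 7.62 to 7.96 at 12 h and 7.54 to 7.77 at 72 h, against 7.91 to 8.25 in controls 4 to 7, and at 7.03 to 7.40 at 24 h, against 7.93 to 8.08 in controls 1 to 3. Those of the Leydig list lay at 7.78 to 8.05 at 12 h and 7.16 to 7.64 at 72 h, against 6.70 to 7.36 in controls 4 to 7, and at 7.61 to 8.15 at 24 h, against 6.47 to 6.71 in controls 1 to 3. Those of the Sertoli list lay at 8.97 to 9.14 at 12 h and 9.38 to 9.62 at 72 h, against 8.89 to 9.14 in controls 4 to 7, and at 9.02 to 9.26 at 24 h, against 8.88 to 9.07 in controls 1 to 3. Of these lists, groups did not overlap for the Leydig list at 12 h and 24 h and the Sertoli list at 72 h. Nor did they for the spermatogonial list at 24 h and 72 h. The array means of the peritubular myoid list lay at 7.31 to 7.49 at 24 h, against 6.88 to 7.22 in controls 1 to 3. These did not overlap either, with a median log2 fold change of 0.24. At 12 h and 72 h the peritubular myoid groups overlapped, and those of the meiotic and macrophage lists overlapped at every time. Single genes weigh on such means. At 72 h the Sertoli list had a median log2 fold change of 0.04 and a highest of 4.27. Its genes were 7 above 0 and 7 below. The Leydig list had medians of 0.52 at 12 h and 0.33 at 24 h, with highest values of 2.86 and 4.62. The spermatogonial medians were -0.88 at 24 h and -0.46 at 72 h, with 8 and 7 of 9 genes below 0. The part of cell makeup in the proteasome changes was not tested.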

How the data were processed

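Testis RNA of 18 hpg mice was hybridised to 1 Affymetrix MOE430A array each (8 µg of RNA per array, per the labels' protocols). The deposited table holds log2 expression values made by the authors, 1 per probe set; RMA and GCRMA are listed in the submitters' processing notes, and which of them made the values is not given in the sources used here. Of 22690 probe sets 64 control probe sets were left out, and 22626 were fitted with no filter on low values. A model with a mean for 12 h, 24 h, 72 h, controls 4 to 7 and controls 1 to 3 was fitted in limma 3.58.1 (R 4.3.3), with 13 residual degrees of freedom and Benjamini-Hochberg adjustment over the 22626 probe sets; a gene was called at an adjusted p below 0.05. Symbols came from the platform annotation given with the series. The fit was tested on simulated data. Of probe sets given a log2 change of 0.5, 39%, 30% and 37% were called at 12, 24 and 72 h. With a change of 1.0 the shares were 80%, 64% and 85%. These shares were not worked out for the proteasome genes alone. A gene with a large SE can thus still have changed by such amounts without a call, as with Psma8 at 12 h (-0.39 ± 0.66). For a gene with a small SE the change and its SE set a narrower range, as with Psme1 at 12 h (-0.01 ± 0.13). The number of arrays limits the precision.

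The genes and marker lists were chosen with earlier results of these data known. Values are given for every gene called, for the largest rise and fall in each part of the proteasome at 12 h and 72 h, and for the cutting subunits, variants and activators. Replicate numbers in the labels were checked for pairing by the correlation of deviations from the group means: 24 h arrays and controls of the same number gave 0.179 to 0.406 in the 3 pairs, and were taken as paired on this evidence from the data; 12 h and 72 h arrays gave 0.013 to 0.13 and were not. The 8 alternatives were same-set arrays only, all 7 controls with no set term, a filter on low values, quantile normalisation, the mean of a gene's probe sets, a replicate block, median centring, and trended robust variances; each array was also left out in turn. The block within 24 h and controls 1 to 3 was added after seeing the data.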

Additional observations from a re-analysis of the deposited data

Results flagged for a closer look

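Of 78 groups of 4 arrays examined over 26 genes, 4 held 1 array far from its others, and chance alone gives about 1 in 20. Psmb4 read 12.03 in 12 h replicate 1 and 11.88 to 11.90 in the other 12 h arrays. Psmc5 read 10.31 in 12 h replicate 4, with 10.15 to 10.17 in the others, and Psmd12 read 9.92 in that array, with 9.77 to 9.79 in the others. Psmb10 read 7.73 in control replicate 7 and 7.19 to 7.24 in controls 4 to 6. In the tests of a difference between times, Psmc2 changed more at 24 h than at 12 h, by 0.58 on the log2 scale, and Psma7 was higher at 72 h than at 12 h, by 0.54.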

How the results depend on the processing

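Over the named genes, 1376 values under the alternatives kept their side of the threshold, with the same direction where called and moving by less than 1 SD between replicates where not, 119 kept their direction and lost the call, 5 gained a call, 30 without a call moved by more than the spread and 1 reversed. The count called higher at 12 h was 2 after quantile normalisation (Psmc4 and Psmc5) and 3 to 7 when 1 array was left out, with 3 without control 5, control 7 or 12 h replicate 4. The 12 h median was 0.26 with all 7 controls, 0.12 after quantile normalisation, 0.24 after centring and 0.13 to 0.19 with 1 array left out. At 24 h the count higher was 2 with same-set arrays alone, 13 with all 7 controls and 12 to 17 with 1 array left out. With all 7 controls the calls of Psma4, Psmb5, Psmd9 and Psmd12 were lost, with changes of 0.22, 0.33, 0.22 and 0.12. Psmb2 and Psmd11 were added there. The count lower was 1, Psmg3, with all 7 controls and with the filter on low values. It was 0 to 1 with 1 array left out (1 without 72 h replicate 2). The median at 24 h was 0.17 with all 7 controls and 0.24 to 0.39 with 1 array left out. At 72 h the count higher was 14 with all 7 controls and 4 to 8 with 1 array left out, with 4 without 72 h replicate 1, control 4 or control 5; the median was 0.25 with all 7 controls, 0.21 after centring and 0.13 to 0.20 with 1 array left out. For 72 h against 12 h the count was 1 to 2 with 1 array left out. The count for the 24 h change minus the 12 h change was 9 with all 7 controls, 0 after centring, 0 with the filter and 0 to 2 with 1 array left out. Of the 9, 5 were higher (Psmb2, Psmb3, Psmc2, Psmd11 and Psmd2) and Psma2, Psma3, Psmc6 and Psmg3 were lower. As that setting has no set term, the difference between the array sets stays in its count. For controls 1 to 3 against controls 4 to 7 the count was 6 to 11 with 1 array left out. Psmb1 at 24 h had 0.00 as the mean of all its probe sets (adjusted p = 0.993). The dimmer Psmb1 probe sets had mean levels of 3.01 and 3.13, against 10.62 for the brightest. Their changes at 24 h were -0.46 and 0.17, with no call. The causes were not tested.

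With the replicate number as a block over all arrays, 0 genes were called higher at 12 h, 10 at 24 h, 1 (Psma7) at 72 h, 0 for the 24 h change minus the 12 h change, and 0 between the control sets; the 12 h and 72 h arrays share only a number. With the block within 24 h and controls 1 to 3, where the numbers were taken as pairs from these data, 2 genes were called for the 24 h change minus the 12 h change. They were Psmc2 and Psmd6.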
